A study of Homo sapiens with 9 samples.

Results

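Peaks of open chromatin on human chromosomes 15 to 20 were mapped in 1 Mb windows in K562 cells with and without a STAG2 R614* mutation. The members are the 479 windows of 1 Mb that cover these 6 chromosomes, of 3053 on chromosomes 1 to 22 and X. Each ATAC-seq library has its own list of peaks, and a peak was counted in the window that holds its centre. A window was compared when at least 500000 of its bases are known in GRCh37 and the 9 lists held 5 or more peaks there on average. That average includes the homozygous lists, so a window can reach the minimum through them alone. That left 381 windows on chromosomes 15 to 20 for the 50000 highest peaks of each list by the deposited −log10 p, and 429 for the full lists. The share of a list is the number of its peaks in a window, arm or chromosome as a percentage of all peaks taken from it. The chromosomes were chosen by the homozygous shares of peaks in these same lists, so every homozygous value below is a description and carries no test.

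K562 is an established human leukaemia line, derived from chronic myeloid leukaemia in blast crisis. The 9 libraries comprise 3 of parental wild type cells, 3 of a line heterozygous for STAG2 R614* and 3 of a line homozygous for it, and the labels name no treatment in any group. Both mutant lines were made by CRISPR-Cas9 editing, and each genotype is 1 line. The labels speak of attached growth, and of lifting with trypsin, for the homozygous cells alone, so genotype, line and adherent growth cannot be told apart. Nothing says that replicates came from separate cultures, so the spread between them may be technical.

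STAG2 is part of cohesin, a ring of proteins that folds the genome into loops, often anchored where the factor CTCF is bound. R614* replaces an arginine codon with a stop codon. In ATAC-seq the Tn5 transposase cuts open DNA, which lies mostly at promoters and enhancers. Human chromosomes differ in how densely genes lie on them: chromosomes 17 and 19 are rich in genes, and chromosome 18 is poor in them.

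The lists held between 181579 and 319986 peaks. Depth is unknown because they hold no read counts. The −log10 p at rank 50000 ran from 4.96 to 6.73. Some lists were not independent. On chromosomes 15 to 20, wild type replicate 3 and heterozygous replicate 1 had 46.8% of the shorter list's peaks at identical starts and ends, and wild type replicates 1 and 2 had 23.9%. The other 34 pairs of lists shared 0.271% to 1.44%. Of 8 erythroid marker genes, 5 or 6 had a peak among the 50000 within 1 kb of a start site in wild type and heterozygous lists and 4 to 6 in homozygous lists, with GATA1 and KLF1 at 0 in all 9. Lymphoid markers had none of 4 in any list, fibroblast markers 2 of 4 in every list (COL1A1 and COL1A2), and epithelial markers 1 of 4, except 2 in homozygous replicate 2. In the full lists GATA1 had 1 or 2 such peaks in every list but heterozygous replicate 2. KLF1 had 1 there in heterozygous replicate 1 and in each homozygous list, and 0 in the rest. The part of these differences in the results was not tested.

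A few regions show what a difference looks like at the level of DNA. The 50000 highest peaks of all lists were merged where they overlapped. On chromosomes 15, 16, 18 and 20 the strongest region present in all 3 homozygous lists and in none of the other 6 is shown as 101 bases of the GRCh37 forward strand. Each stretch is set around the median, over the lists, of the centre that a 500-base peak with the same start would have. Capitals mark the AP-1 motif TGANTCA or the GATA motif AGATAA, read on either strand. AP-1 factors are dimers of Jun and Fos proteins, and GATA factors are central to blood cells.
Homozygous region of chromosome 15: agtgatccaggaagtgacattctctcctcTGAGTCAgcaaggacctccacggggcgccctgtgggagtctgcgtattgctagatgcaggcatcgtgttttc
Homozygous region of chromosome 16: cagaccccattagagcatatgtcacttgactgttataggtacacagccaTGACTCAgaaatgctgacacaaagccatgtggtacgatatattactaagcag
Homozygous region of chromosome 18: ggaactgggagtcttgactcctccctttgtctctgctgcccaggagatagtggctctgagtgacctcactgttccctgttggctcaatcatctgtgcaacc
Homozygous region of chromosome 20: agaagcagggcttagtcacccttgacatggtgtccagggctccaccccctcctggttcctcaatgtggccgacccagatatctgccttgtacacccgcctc
Missing region of chromosome 17: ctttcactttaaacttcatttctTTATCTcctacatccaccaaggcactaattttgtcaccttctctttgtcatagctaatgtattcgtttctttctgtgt
Missing region of chromosome 18: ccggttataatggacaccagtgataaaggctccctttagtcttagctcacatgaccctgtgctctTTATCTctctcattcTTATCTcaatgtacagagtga

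These stretches lie at chr15:86422745-86422845, chr16:58400289-58400389, chr18:56258329-56258429 and chr20:24402835-24402935. The fold enrichments given with the regions are the authors' own values per peak, over the local background of each list. The chromosome 15 region is intergenic, 84639 bases from the nearest protein-coding start, that of KLHL25, and its fold enrichment was 6.49, 8.23 and 8.53 in homozygous replicates 1 to 3. The chromosome 16 region lies in an intron of GINS3, which encodes a subunit of the replicative helicase, and had 10.0, 7.81 and 12.0. Both hold 1 AP-1 motif, and the regions of chromosomes 18 and 20 hold none. The chromosome 18 region is in an intron of ALPK2 and had 9.27, 7.90 and 7.20. The intergenic chromosome 20 region, 47380 bases from the start of SYNDIG1, had 11.1, 6.23 and 13.9.

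Absence from the 50000 highest peaks was often not absence from a list. At the chromosome 16 region 4 of the other 6 lists had a weaker peak lower down, at the chromosome 15 region 3 of 6, and at the regions of chromosomes 18 and 20 2 of 6 each. The last 2 sequences are regions that all 6 wild type and heterozygous lists had and no homozygous list had among the 50000. A stretch of 101 bases was read in the strongest such region of each chromosome. These 2 are printed because their stretches hold a GATA motif, a choice made after the motifs were seen. The stretches from the missing regions of chromosomes 15, 16, 19 and 20 hold none of the motifs searched, which leaves the rest of each region undescribed. The one at chr17:38984206-38984306, 5390 bases from the start of the keratin gene KRT10, holds 1 GATA motif and had fold enrichments of 5.74 to 7.43, although it lies within the 9 windows of 17q where homozygous lists had the longest run of higher windows. The one at chr18:28259658-28259758, 363073 bases from the start of the desmosome gene DSC3, holds 2 GATA motifs and had 6.22 to 12.0. Homozygous lists had a weaker peak there in 3 of 3 and 2 of 3 cases. In all, 284 of 14343 merged regions on chromosomes 15 to 20 were homozygous only, or 1.98%, beside a background of 1.80% of 105719 regions genome-wide. Another 130 regions, or 0.906%, were missing from the homozygous lists, beside a background of 1.56%.

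The homozygous lists placed more of their peaks on chromosomes 15 to 20 than any other list. Among the 50000 highest peaks the share was 13.7%, 13.3% and 13.6% in wild type replicates 1 to 3, 13.1%, 13.7% and 13.4% in the heterozygous ones, and 15.4%, 15.3% and 15.5% in the homozygous ones. The 3 homozygous values lay close together and did not overlap the other 6. The means were 13.5% ± 0.197 in wild type lists, 13.4% ± 0.295 in heterozygous lists and 15.4% ± 0.0645 in homozygous lists (SD, n = 3 each), a ratio of 1.14 to the other 6. The full lists gave shares of 8.95% to 9.68% outside the homozygous genotype and 12.4%, 12.7% and 13.2% within it, a ratio of 1.38. The excess was not limited to these chromosomes: chromosomes 21 and 22 together took 1.78% to 2.05% of the 50000 in the other 6 lists and 2.42% to 2.52% in homozygous lists, a ratio of 1.28, and 1.46 in the full lists.

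Of the 6 chromosomes, 17 and 19 stood highest above the other lists. Chromosome 17 took 2.06% to 2.198% of the 50000 peaks in the other 6 lists and 2.69% to 2.70% in the homozygous lists, a ratio of 1.25. Chromosome 19 took 2.42% to 2.54% and 3.04% to 3.19%, also a ratio of 1.25. The ratio was 1.12 for chromosome 20, 1.11 for chromosome 15, 1.08 for chromosome 18 and 1.05 for chromosome 16. On all 6 chromosomes the 3 homozygous lists lay above the other 6, though on chromosome 16 the gap was only from 2.61% to 2.62%.

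The excess was not even along chromosomes. Of 11 arms with known sequence, counting the long arm of chromosome 15 as 1, 9 had all 3 homozygous lists above the other 6. The short arm of chromosome 17 had the highest ratio, 1.37, with 0.398% to 0.430% in the other lists and 0.536% to 0.602% in the homozygous ones. It was followed by 19p at 1.30, 17q at 1.22 and 19q at 1.21. The 2 arms of chromosome 16 differed: 16p had a ratio of 1.17 and did not overlap, while 16q had 0.973, with homozygous shares of 1.52% to 1.57% inside the 1.51% to 1.66% of the other lists. Arm 20p overlapped too, at 0.592% to 0.678% against 0.544% to 0.676%, whereas 20q did not, with a ratio of 1.17. Arms 18p and 18q had ratios of 1.14 and 1.06. With only peaks within 1 kb of a start site, 5 of the 11 arms were higher, and 18q turned to a log2 ratio of -0.0447. In the full lists the same 2 arms, 16q and 20p, overlapped, and the ratio reached 1.70 on 19p and 1.68 on 17p. Across the 11 arms the ratio rose with the number of protein-coding gene starts per Mb, with a Spearman correlation of 0.791 in either list. Arms of 1 genome share their libraries, so this is a description.

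**Figure D1:**
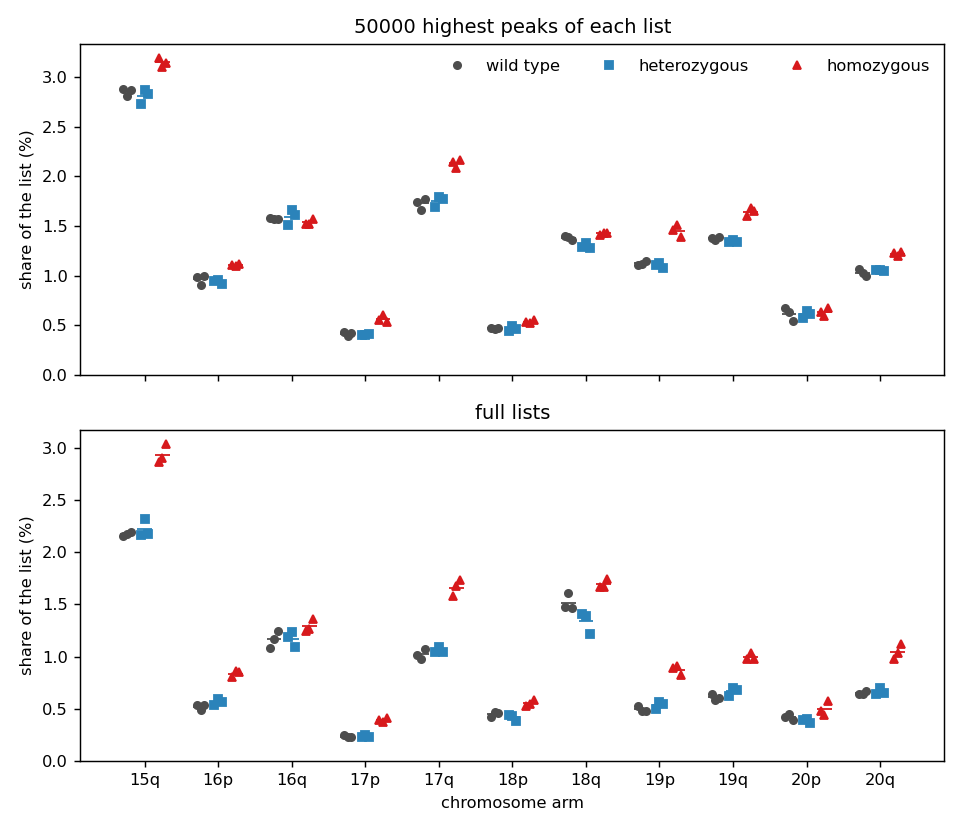
Share of each list on each arm (%, y axis) for the 50000 highest peaks and the full lists. Points are the 9 libraries and short lines the means of 3. Homozygous points lie above the other 6 on all arms but 16q and 20p in both panels.

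The rank of a peak mattered. Among ranks 1 to 20000, chromosomes 15 to 20 held 11.5% to 12.4% of peaks in the other 6 lists and 15.3% to 16.7% in the homozygous lists, a ratio of 1.35. Among ranks 20001 to 50000 the lists overlapped, at 13.8% to 14.997% against 14.5% to 15.6%, and the ratio was 1.03. Among ranks 50001 to 100000 the other lists spread from 8.15% to 12.9%, below the 13.9% to 15.6% of the homozygous lists. Among ranks 100001 to 180000 the values were 6.60% to 8.92% and 9.37% to 11.003%. The lists were thus separate among the strongest and the weak peaks and overlapped in between.

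**Figure D2:**
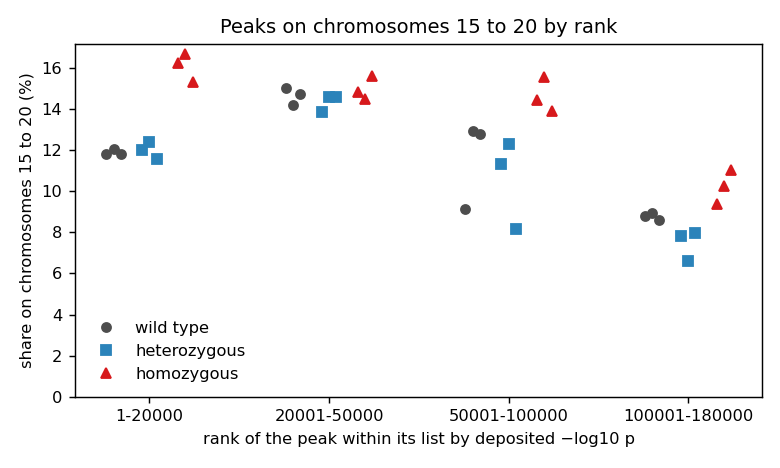
Share of peaks on chromosomes 15 to 20 (%, y axis) among peaks of 4 rank ranges (x axis), 1 point per library. The lists overlap only for ranks 20001 to 50000.

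In 1 Mb windows, 107 of the 381 compared had all 3 homozygous lists above the other 6, or 28.1%, and 22 had all 3 below, or 5.77%. Genome-wide, 13.0% of 2393 windows were higher and 13.7% lower. On chromosomes 1 to 14 the split ran the other way, with 9.04% higher and 14.99% lower of 1848. On chromosomes 21 and 22 the higher share was above that of chromosomes 15 to 20, with 30 of 59 windows, or 50.8%, and 4 lower. In the full lists 252 of 429 windows on chromosomes 15 to 20 were higher, or 58.7%, and 12 were lower, beside a background of 27.7% higher and 15.1% lower. Of the 107 windows, 102 were also higher in the full lists. With peaks near start sites alone, fewer windows reached the minimum, and 32 of 199 were higher, or 16.1%, beside a background of 5.55% of 901 genome-wide. Since the chromosomes were chosen for this contrast, nothing is read from these shares beyond where the windows lie. Chromosome 19 had 30 higher windows of 55 and chromosome 17 had 31 of 73. Chromosome 15 had 15 of 78, chromosome 20 had 13 of 51, chromosome 16 had 12 of 67 and chromosome 18 had 6 of 57.

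Single windows rest on few peaks. In 16 of the 107 the lowest homozygous list was just 1 peak above the highest other list. Just outside the rule, 26 windows had the lowest homozygous list level with the highest other, and 36 had it 1 peak below. A gap of 5 or more peaks was found in 32 windows. The widest gap, 11 peaks, was at chr15:75000001-76000000, a window with 24 gene starts named here after its values were seen. It held 30, 26 and 26 peaks in wild type lists, 30, 29 and 31 in heterozygous lists and 46, 53 and 42 in homozygous lists.

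**Figure D3:**
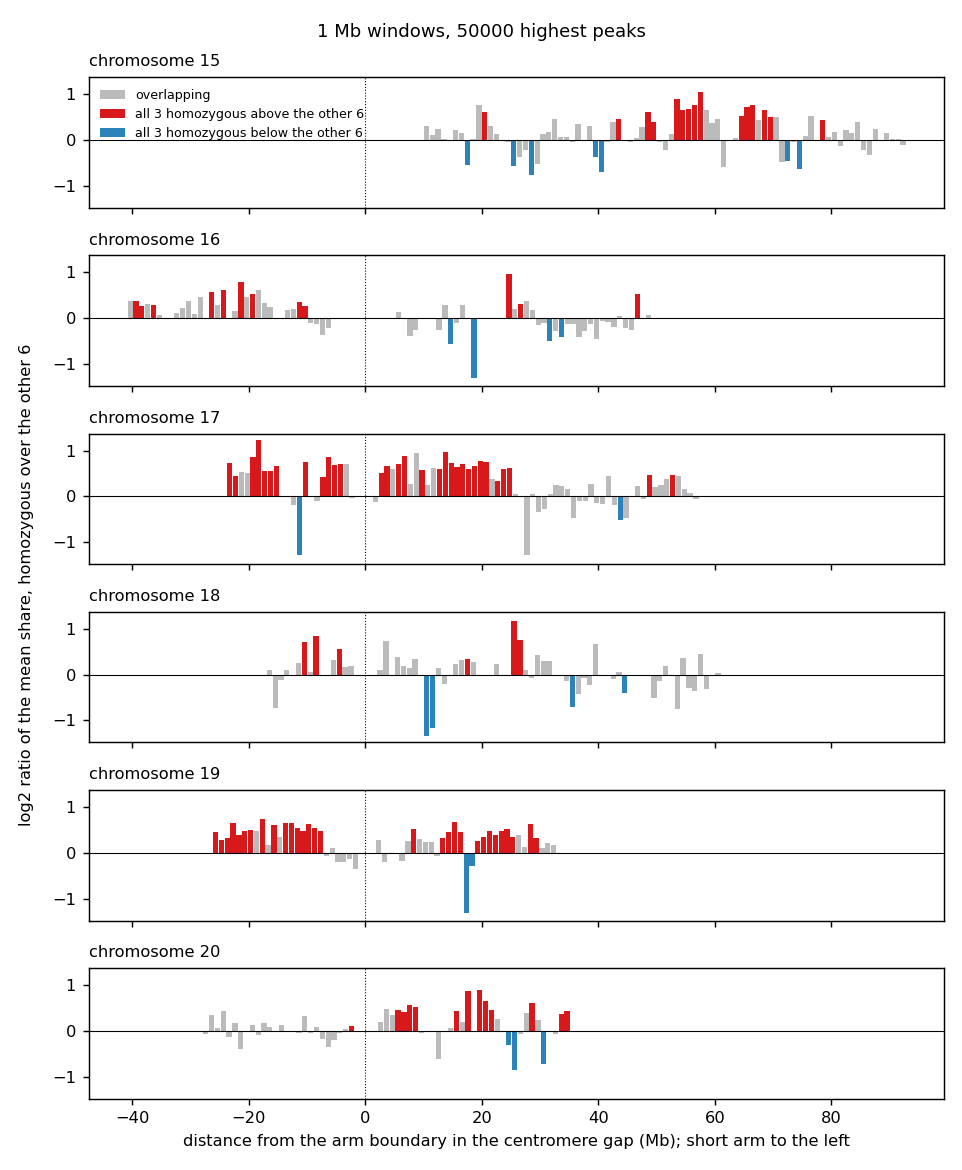
Log2 ratio of the mean share of the 50000 highest peaks, homozygous over the other 6 lists (y axis), for each 1 Mb window compared (bars) by its distance from the arm boundary (Mb, x axis). The 107 red windows gather on 17p, proximal 17q, 19p, distal 19q and parts of 15q and 20q, and the 22 blue windows are scattered.

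Adjacent higher windows formed 12 segments of 3 or more windows on chromosomes 15 to 20, with 61 windows in all, and no lower segment was found there. Chromosomes 1 to 14 had 4 higher and 19 lower segments, and chromosomes 21 and 22 had 5 higher ones, with 19 of their 59 windows, and 0 lower. Over the 12 segments together the wild type lists held 1178, 1142 and 1185 peaks, the heterozygous lists 1157, 1165 and 1126, and the homozygous lists 1684, 1750 and 1673. Segments contain only windows called higher, so their groups cannot overlap, and the rule favours wide gaps and small spreads. The values are a description. In 60 of the 61 windows the full lists were higher too.

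On chromosome 15, the segment at chr15:63000001-68000000 had the largest ratio, 1.71. It held 72, 75 and 74 peaks in wild type lists, 71, 74 and 72 in heterozygous lists and 124, 125 and 126 in homozygous lists. The groups were each nearly constant, which the choice of windows favours. Its share of the full lists was 2.83 times as high in homozygous lists. A second segment, chr15:74000001-77000000, held 57 to 72 peaks in the other lists and 97 to 117 in the homozygous ones.

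The longest segment was on 17q, at chr17:36000001-45000000, with 9 windows and 254 gene starts. It held 145, 128 and 133 peaks in wild type lists, 128, 127 and 131 in heterozygous lists and 222, 219 and 208 in homozygous lists, a ratio of 1.64. The other segments of the chromosome were chr17:4000001-9000000 with 50 to 55 against 77 to 96 peaks, chr17:16000001-20000000 with 35 to 40 against 56 to 64, and chr17:46000001-49000000 with 50 to 62 against 74 to 84. The first of these includes chr17:5000001-6000000, which reached the minimum of peaks only with the homozygous lists. Over the full lists, 25 adjacent windows at chr17:25000001-50000000 were all higher. That stretch was then set beside the rest of 17q, a division made after the map was seen. Its median window had a log2 ratio of 0.61 among the 50000 highest peaks, and 17 of 25 windows were higher. From there to the end of the arm the median was 0.06, and 2 of 29 windows were higher. In the full lists the medians were 0.99 and 0.63, so the distal stretch had a raised median there too. The median number of gene starts per window was 18 in the first stretch and 8 in the second.

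Chromosome 19 had 4 segments, on both arms. At chr19:1-7000000 the other lists held 178 to 193 peaks and the homozygous lists 243 to 259. At chr19:12000001-19000000 the numbers were 140 to 154 and 210 to 225, at chr19:39000001-43000000 they were 83 to 91 and 114 to 128, and at chr19:45000001-52000000 they were 200 to 226 and 279 to 294. Segment ratios on this chromosome ran from 1.33 to 1.48, below that of the longest 17q segment. The short arm was also divided at chr19:20000000, where a run of higher windows in the full lists ends, after the map was seen. Counts on either side are therefore a description. Of the 20 windows from the short-arm end to that point, 16 were higher. Of the next 5, toward the centromere, none was, and their median log2 ratio was -0.19 in the 50000 highest peaks but 0.41 in the full lists.

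On chromosome 20 both segments were on the long arm. The segment at chr20:33000001-37000000 held 52 to 62 peaks in the other lists and 76 to 80 in homozygous lists, and chr20:47000001-50000000 held 46 to 52 and 70 to 80. Chromosomes 16 and 18 had none in the 50000 highest peaks. On 16p, 9 of 30 windows were higher and none was lower, but they did not adjoin in runs of 3. On 16q, 3 of 37 were higher and 4 lower. The full lists gave 29 segments with 222 windows on chromosomes 15 to 20, including on 16 and 18.

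**Figure D4:**
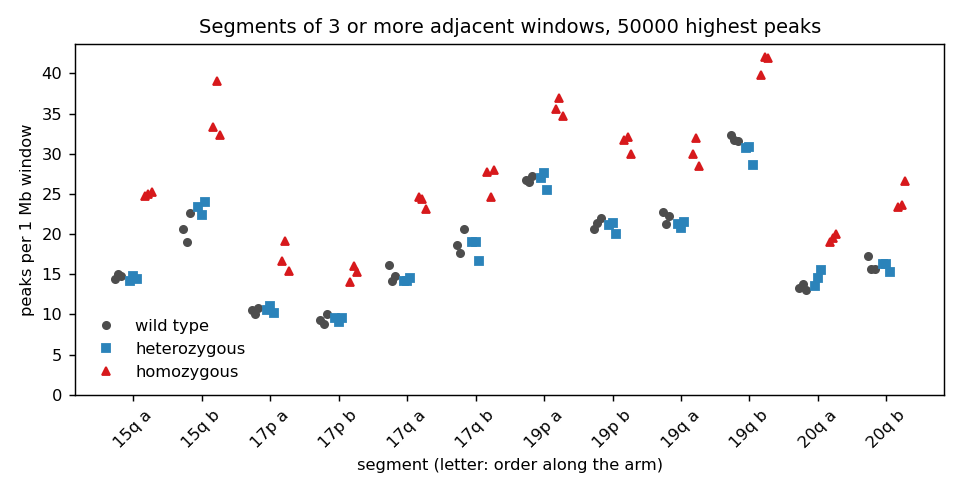
Peaks per 1 Mb window among the 50000 highest (y axis) in each of the 12 segments (x axis), 1 point per library. Segments consist of windows called higher, so the gap is by construction. The rule also favours wide gaps and a small spread within groups, so both are descriptions. Totals were 1126 to 1185 peaks in the other lists and 1673 to 1750 in homozygous lists.

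On each chromosome the higher window with the largest log2 ratio was examined for its genes. On chromosome 15 it was chr15:67000001-68000000, which holds the starts of SMAD3, a transducer of TGF-beta signals, and MAP2K5, a kinase of the ERK5 pathway. It had 9, 11 and 11 peaks in wild type lists, 10, 11 and 10 in heterozygous lists and 20, 23 and 21 in homozygous lists. On chromosome 18 it was chr18:42000001-43000000 with SETBP1, a gene mutated in myeloid neoplasms, and the urea transporter gene SLC14A2, at 13, 13 and 10, then 12, 9 and 10, then 25, 22 and 28 peaks. Both windows were also higher in the full lists, with ratios of 3.13 and 1.68. On chromosome 17 it was chr17:5000001-6000000, with 15 gene starts among them NLRP1, an inflammasome sensor, and 3 or 4 peaks against 10, 9 and 7. The other 6 lists averaged 3.67 peaks there, under the minimum of 5. This window was thus compared only because the homozygous lists were high, and its rank is a description. On chromosome 19 it was chr19:8000001-9000000, with 23 gene starts among them ANGPTL4 and RAB11B, and 15 to 20 peaks against 31, 32 and 25. On chromosome 20 it was chr20:47000001-48000000 with PREX1, an activator of Rac GTPases, with 5 to 9 peaks against 15, 13 and 13. On chromosome 16 it was chr16:65000001-66000000 with 1 gene start, that of the cadherin CDH11, and 5 or 6 peaks against 11 in each homozygous list. That last window overlapped in the full lists, with a ratio of 1.13, and among the 20000 highest peaks its difference was -0.00083 percentage points.

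On each chromosome the lower window with the lowest log2 ratio had fewer gene starts than the higher one. At chr16:59000001-60000000 and chr18:27000001-28000000 no protein-coding gene starts. They held 8 to 10 peaks against 5, 3 and 3, and 6 to 12 against 5, 5 and 1. At chr15:38000001-39000000, with SPRED1, an inhibitor of Ras signalling, and RASGRP1, an activator of Ras, there were 22 to 24 peaks against 15, 11 and 14. At chr17:12000001-13000000, with MYOCD, a coactivator of muscle genes, there were 5 to 9 against 4, 3 and 1. At chr20:53000001-54000000, with DOK5, there were 9 to 15 against 7, 6 and 6. The most gene starts of these 6, 15, were at chr19:43000001-44000000, most of them pregnancy-specific glycoprotein genes of the PSG family, and this window held 10 to 14 peaks against 4, 7 and 4. Near-identical PSG copies make read placement there uncertain. Only the chromosome 16 window of these 6 was also lower in the full lists.

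Across the 381 windows, the log2 ratio rose with the number of protein-coding gene starts. The Spearman correlation was 0.415, beside 0.153 over 1848 windows of chromosomes 1 to 14. In the full lists it was 0.519 and 0.514. These are correlations across windows of the same libraries, which share depth and base composition, and carry no p. The correlation with GC content was higher in each case, at 0.492 on chromosomes 15 to 20 and 0.291 on chromosomes 1 to 14, and 0.612 and 0.660 in the full lists. The share of a window itself correlated with its gene starts at 0.420 to 0.483 in wild type and heterozygous lists, and at 0.608 to 0.632 in homozygous lists, among the 50000 highest peaks. Over the full lists the correlation was weaker, at -0.0741 to 0.285 in the other 6 and 0.282 to 0.452 in homozygous lists.

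Windows of the same gene density were then compared. With 0 to 4 gene starts, 9 of 114 windows on chromosomes 15 to 20 were higher and 9 lower, and the median log2 ratio was -0.02. With 5 to 9 it was 0.09, with 10 to 19 it was 0.37 and with 20 or more it was 0.36, where 54 of 95 windows were higher and 1 lower. On chromosomes 1 to 14 the medians were -0.09, -0.03, 0.00 and 0.08 for the same bands, with 24 of 119 windows higher in the densest. In each band the median on chromosomes 15 to 20 was the higher one, in the full lists as well, where they were 0.17, 0.52, 0.82 and 0.77 against -0.26, 0.02, 0.35 and 0.50. Since these chromosomes were picked for that contrast, the gap is a description. Base composition and gene density moved together. Of 123 windows with at least 45% GC and at least 10 gene starts, 74 were higher. With only 1 of the 2 properties, 10 of 45 and 6 of 27 were higher, and with neither, 17 of 186. The part of each in the difference was not tested.

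**Figure D5:**
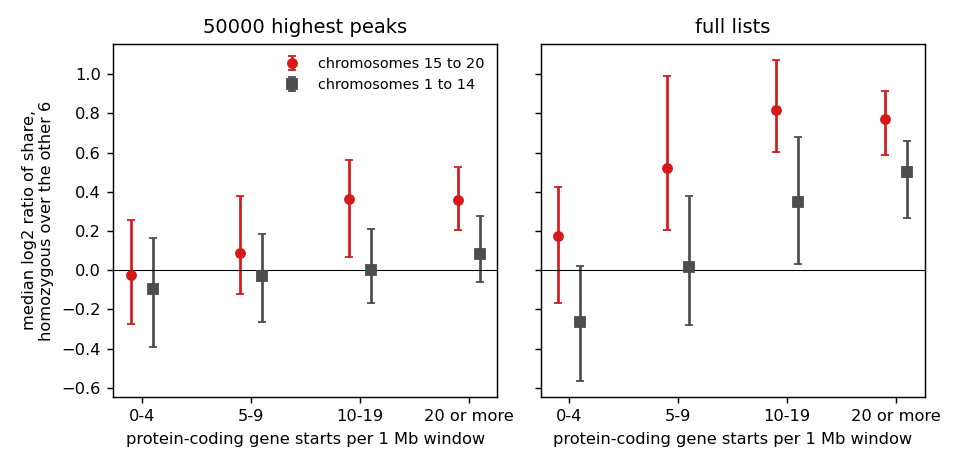
Median log2 ratio of the window share, homozygous over the other 6 lists (y axis), by number of gene starts in the window (x axis); bars span the quartiles of windows. Chromosomes 15 to 20 lie above chromosomes 1 to 14 in every band, and both rise toward gene-dense windows.

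In higher windows the homozygous lists exceeded the others more in peaks away from promoters than in promoter peaks. Within the 107 windows the wild type lists held 1022, 1017 and 1036 peaks within 1 kb of a start site, the heterozygous lists 1033, 1043 and 1010, and the homozygous lists 1281, 1311 and 1223. Farther from start sites there were 924, 866 and 910 in wild type lists, 872, 889 and 837 in heterozygous lists and 1481, 1499 and 1522 in homozygous lists. The windows were chosen for more homozygous peaks, so a gap in the sum of both kinds is given by the rule. The rule may also shape how the gap divides between them, so the division is a description. Promoter peaks were 52.5% to 54.7% of all peaks there in the other lists and 44.6% to 46.7% in homozygous lists. In the other windows of chromosomes 15 to 20, promoter peaks were 29.5% to 31.5% and 29.5% to 32.0%, which overlap. Most peaks there were thus away from start sites in every list. Between 36.5% and 37.3% of the homozygous peaks in higher windows overlapped one of the 50000 in all 6 other lists. Between 24.1% and 25.1% overlapped none, but of those, 69.3% to 75.4% overlapped a weaker peak in some other full list.

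Short motifs were counted within 50 bases of the middle of peaks 500 bases wide, on both strands. On chromosomes 15 to 20 the AP-1 motif TGANTCA was at 8.26%, 8.57% and 7.97% of peaks in wild type lists, 7.81%, 7.20% and 7.27% in heterozygous lists and 11.04%, 10.3% and 15.7% in homozygous lists. Replicate 3 was the highest of the homozygous lists, and the groups did not overlap. Elsewhere in the genome the shares were 8.80% to 10.8% in the other lists and 13.1% to 18.1% in homozygous lists, so a higher AP-1 share was not limited to these chromosomes. In the 107 higher windows it was 5.83% to 6.93% against 8.15% to 14.8%. The CTCF motif was at 4.24% to 4.61% of peaks in the other lists and 3.08% to 3.78% in homozygous lists on chromosomes 15 to 20. A lower CTCF share was not limited to them either, at 4.56% to 4.93% and 3.41% to 3.64% elsewhere. In the 107 higher windows the lists overlapped, at 2.21% to 3.36% in the other lists and 2.16% to 3.07% in homozygous lists. The GATA motif AGATAA overlapped between the groups, at 5.69% to 7.20% and 7.11% to 7.79%. Letters of a motif are not bound factors, and the shares are over all peaks of that width in the named lists.

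A 9-letter word of Alu repeats, TAATCCCAG, was also counted, chosen after the data were seen because Alu repeats are dense on gene-rich chromosomes. On chromosomes 15 to 20, 513 to 560 of the 50000 highest peaks held it in the other lists and 685 to 766 in homozygous lists. Peaks without it numbered 6038 to 6333 and 6904 to 7011. As a share of all 50000 peaks these were 12.1% to 12.7% in the other lists and 13.8% to 14.02% in homozygous lists. As a share of the peaks without the word genome-wide they were 13.1% to 13.7% and 15.1% to 15.3%, which do not overlap.

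By gene, peaks were counted in the gene body and 10 kb on each side. Of 4947 protein-coding genes on chromosomes 15 to 20, 200 had all 3 homozygous lists above the other 6 and 42 had all 3 below. The background was 2.91% of 20090 genes in each direction. Chromosome 19 had 65 higher and 4 lower of 1480 genes, chromosome 17 had 62 and 5 of 1189, and chromosome 15 had 32 and 12 of 606. Chromosome 16 had 26 and 6 of 861, chromosome 20 had 7 and 4 of 545, and chromosome 18 had 8 and 11 of 266. As a share of genes, higher calls on chromosomes 16 and 18 were near the background, and on chromosome 20 below it. Chromosome 18 alone had more lower than higher genes. Neighbouring genes share peaks, so these counts are not independent. The genes named next, 18 higher and 6 lower, were chosen on the 50000 highest peaks. In the full lists, with counts as they are, 8 of the 18 were higher and 10 overlapped, and 1 of the 6 was lower and 5 overlapped. Over all genes genome-wide 6.70% were higher and 1.92% lower there. The full lists hold the peaks on which the named genes were chosen, so nothing is read from the gap to that background. The 8 were SETBP1, RAB11A, NLRC5, RSKR, ASIC2, HOOK2, CTNNBL1 and KCNK15, and the 1 was ATP8B4.

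The largest gene difference on the 6 chromosomes was at SETBP1 on chromosome 18, with 9, 8 and 7 peaks in wild type lists, 8, 5 and 4 in heterozygous lists and 17, 18 and 18 in homozygous lists. DTNA, which encodes the dystrophin-associated protein dystrobrevin alpha, had 3 to 9 peaks in the other lists and 10, 11 and 10 in homozygous lists. DTNA overlapped in the full lists, with means of 56.8 other and 58.7 homozygous peaks, and among the 20000 highest its difference was 0. ZNF521, a zinc finger gene of blood progenitors, had 3 to 6 and 7, 8 and 8. On the same chromosome TCF4, a basic helix-loop-helix factor gene, was lower, with 8 to 12 and 4, 7 and 4. The largest gene difference thus lay on the most gene-poor of the 6 chromosomes.

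On chromosome 15, NTRK3, the gene of the neurotrophin-3 receptor, had 9, 7 and 5 peaks in wild type lists, 5, 4 and 3 in heterozygous lists and 12, 11 and 12 in homozygous lists. NTRK3 overlapped in the full lists, with a mean of 62.0 homozygous and 64.3 other peaks. RAB11A, a GTPase gene of recycling endosomes, had 3 to 5 peaks in the other lists and 10, 9 and 10 in homozygous lists. IGF1R, the gene of the IGF-1 receptor, had 10 to 12 and 14, 15 and 19, but among the 20000 highest peaks its homozygous mean was lower, by a difference of -1 peaks. ATP8B4, the gene of a phospholipid flippase, was lower, with 8 to 10 and 5, 4 and 4, and turned to a difference of 0.667 among the 20000 highest. RAB11A lies inside the segment at chr15:63000001-68000000.

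On chromosome 16, NLRC5, an activator of MHC class I genes, had 1 or 2 peaks in the other lists and 5, 4 and 4 in homozygous lists. ACD, which encodes a protein of telomere ends, had 1 or 2 and 3, 4 and 3, and GINS3 had 3 or 4 and 5 in each. Within 1 kb of the start sites of GINS3 the difference was -0.167. GSE1 was lower, with 27 to 29 peaks and 22, 19 and 23, but in the full lists, scaled to equal length, its difference was 4.23 peaks. On chromosome 17, MYO18A, an unconventional myosin gene, had 2 to 4 and 9, 8 and 8. ASIC2, the gene of an acid-sensing ion channel, had 6 to 8 and 10, 10 and 12, and the kinase gene RSKR had 3 or 4 and 7, 6 and 9. PRKCA, the gene of protein kinase C alpha, was lower, with 9 to 11 and 7, 6 and 8, but was higher by 12.1 peaks in the full lists, scaled to equal length. All 3 higher genes of chromosome 17 lie on 17q between chr17:25000001 and chr17:50000000, and PRKCA lies beyond.

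On chromosome 19, HOOK2, whose product links organelles to microtubules, had 2 to 5 peaks in the other lists and 9, 7 and 8 in homozygous lists, and its span with 10 kb covers JUNB. LTBP4, the gene of a latent TGF-beta binding protein, had 1 to 4 and 9, 6 and 5. NR1H2, the gene of the oxysterol receptor LXR-beta, had 3 to 5 and 6, 6 and 9. LYPD5 was lower, with 3 or 4 and 2, 1 and 2. On chromosome 20 the differences were small. BCAS4 had 1 or 2 peaks and 3, 4 and 4, CTNNBL1 had 2 in each of the other lists and 4, 4 and 3, and the potassium channel gene KCNK15 had 0 or 1 and 2 in each. FERMT1, which encodes the integrin adaptor kindlin-1, had 1 to 3 peaks in the other lists and was not in any homozygous list among the 50000. FERMT1 did have peaks in every full homozygous list, with a mean of 4.33 against 8 in the other lists.

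Lists of genes that bear on blood cells, adhesion and cohesin were read on the 6 chromosomes. They were drawn up with earlier results of these data known. Of 60 genes, 2 were higher and 1 was lower, beside 200 and 42 of all 4947 genes there, and the median difference was 0.250 peaks beside 0.167. Of 8 basic leucine zipper genes, JUNB had 0, 1 and 1 peaks in wild type lists, 0, 1 and 1 in heterozygous lists and 2, 2 and 3 in homozygous lists. FOSB had 1, 1 and 2, then 2, 2 and 2, then 3, 3 and 3. Both encode subunits of AP-1. In the full lists both overlapped, JUNB with 2 to 6 peaks in the other lists and 6, 7 and 7 in homozygous lists, and FOSB with 3 or 4 and 5, 4 and 3. Of 20 red cell and platelet genes, FECH, the last enzyme of haem synthesis, had 2, 2 and 3, then 3, 3 and 3, then 1 peak in each homozygous list. FECH overlapped in the full lists, with means of 6.83 other and 6.67 homozygous peaks. The other 19 had no call, among them the alpha-like globin genes HBZ, HBA1 and HBA2 on 16p, where near-identical copies make read placement uncertain. Of 28 adhesion, matrix and cytoskeleton genes and 4 cohesin and insulator genes, none was called in either direction. CTCF itself, on 16q, had 1 peak in all 9 lists.

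Heterozygous and wild type lists were compared with tests, since the choice of chromosomes did not rest on that difference. On chromosomes 15 to 20 as a whole the heterozygous mean was lower by 0.155 percentage points, with overlapping lists (exact two-sided permutation p = 0.5). Over the 6 chromosomes and 10 arms the lowest exact two-sided permutation p was 0.1, the smallest that 3 against 3 lists can give. It was found for chromosome 18, its long arm and 19q, with Benjamini-Hochberg adjusted exact p = 0.533 for each. Chromosome 18 took 1.87%, 1.85% and 1.84% in wild type and 1.73%, 1.83% and 1.74% in heterozygous lists.

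Window by window, limma called 0 of 381 windows on chromosomes 15 to 20 and 0 of 2393 in all, a background of 0%. At an unadjusted limma p under 0.05 there were 23 windows, or 6.04% of those on chromosomes 15 to 20, and 223 in all. The lowest limma adjusted p on these chromosomes was 0.282. It was reached at chr15:45000001-46000000, with a log2 difference of -0.38 ± 0.11 (SE), and at chr17:74000001-75000000, with 0.43 ± 0.13. Without wild type replicate 3, limma called 5 windows higher and 1 lower on chromosomes 15 to 20, of 27 and 25 in all. The wild type lists left were replicates 1 and 2, which had 23.9% of the shorter list's peaks in common there. Their spread may therefore be smaller than that of independent lists. Wild type replicate 3 shares peaks with heterozygous replicate 1, but without the latter limma called 0 windows. On simulated lists of this size the test recovered 9.50% of windows changed 1.5-fold, 69.0% of those changed 2-fold and 96.0% of those changed 3-fold. The simulated lists were drawn independently of each other (Poisson counts), unlike the real ones, some of which share peaks. These rates may therefore not hold for the real lists. Even in the simulation most 1.5-fold differences between heterozygous and wild type were missed. In the 107 windows where homozygous lists were higher, the wild type lists held 1946, 1883 and 1946 peaks and the heterozygous lists 1905, 1932 and 1847, which overlap.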

How the data were processed

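ATAC-seq peak lists of 9 libraries, 3 per genotype, were used. Per the labels, each replicate had 50000 cells and reads of 100 bp. Per the submitters' processing notes, cutadapt, Bowtie2 2.2.9, Picard and MACS2 2.1.0 and the builds hg19 and GRCh37 were used. Settings, filters and any Tn5 shift are not given in the sources used here. Peaks were called per library. The deposited columns hold a fold enrichment (a linear ratio), the −log10 of p and the −log10 of q. The display score and summit offsets (other) as deposited hold no measurement. The offsets were not counted from the deposited starts: a CTCF motif was at 4.57% of peak centres in wild type replicate 1 and at 0.314% of starts plus offset, so centres were used. Joined peaks carry averaged values.

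Peaks of chromosomes 1 to 22 and X were counted with Python 3.11.15 and pandas 2.3.3. Gene starts came from GENCODE release 44 on GRCh37. Heterozygous minus wild type was tested with limma 3.58.1 in R 4.3.3 on log2 of peak counts plus 0.5, over all windows and all 9 libraries, adjusted by Benjamini-Hochberg at 0.05, and was tested on simulated data. Members, lists and alternatives were chosen with earlier results of these data known. Named were, per chromosome, the higher window with the largest and the lower window with the lowest log2 ratio, all segments, the region of each kind whose lowest within-list percentile was highest, the 3 higher genes and 1 lower gene with the largest difference, and called genes of 4 lists. Alternatives covered list length, peak position, window size, minimum counts, peaks near or far from start sites, shared lists and leaving out libraries. Regions the rule names on chromosomes 17 and 19 as present in homozygous lists alone are not reported here.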

Additional observations from a re-analysis of the deposited data

How the results depend on the processing

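The homozygous minus other difference in the share of chromosomes 15 to 20 was 1.94 percentage points. It was 4.13 with the 20000 highest peaks, 2.74 with 100000, 3.52 with the full lists, 1.85 with peaks far from start sites, 2.84 per 100 peaks outside chromosomes 15 to 22, and 1.55 when peaks holding the Alu word were left out of the numerator alone, or 1.81 when left out of both numerator and denominator. The last 2 were chosen after seeing the data. Leaving out 1 library gave 1.86 to 1.99. The number of higher arms, 9, was 5 with peaks within 1 kb of start sites, where 18q had a log2 ratio of -0.0447. It stayed within 1.5 times of 9 under the other alternatives tried.

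The 107 higher windows became 167 with 100000 peaks, 252 with the full lists, 32 of 199 (16.1%, beside 5.55% genome-wide) with peaks near start sites and 70 with 2 Mb windows. The 12 segments became 21 with 100000 peaks and 29 with the full lists. Counting lists that share intervals as 1 source moved neither by over 1.5 times. The correlation with gene starts, 0.415, was 0.613 with 20000 peaks, 0.519 with the full lists, 0.359 with no minimum of peaks and 0.344 as Pearson's. The listed genes called higher were 2 of 60, beside 2.91% of all genes genome-wide and 200 of the 4947 genes on chromosomes 15 to 20. They became 5 beside 2.37% genome-wide with 20000 peaks and 6 beside 4.46% with 100000. With the full lists scaled to equal length they were 15 beside 16.3%, and near start sites 1 beside 0.572%. All listed genes lie on chromosomes 15 to 20, and the share there is not given for these alternatives, so no enrichment is read from them.

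Signs turned for the chromosome 16 window with CDH11 (-0.00083 percentage points, 20000 peaks) and the chromosome 19 window with PSG genes (0.0021, full lists). They also turned for IGF1R (-1) and ATP8B4 (0.667) with 20000 peaks, PRKCA with 100000 (2.33) and the full lists (12.1), GSE1 with the full lists (4.23) and GINS3 near start sites (-0.167). The causes were not tested.

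For heterozygous minus wild type, leaving out 1 library gave 0 to 6 called windows on chromosomes 15 to 20, with 6 only without wild type replicate 3. The wild type lists left in that case share peaks with each other. With the replicate number as a block, limma called 0 windows there and 1 of 2393 in all, and the sign-flip test of chromosomes and arms called 0, its smallest exact p being 0.25. The numbers share only a label: deviations of same-numbered lists correlated at -0.256, 0.149 and -0.115. Depth is unknown, so no counting error can be given, and windows near the minimum of 5 peaks are the least precise.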
